A study of Drosophila melanogaster with 4 samples.

Results

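The Antennapedia complex is the Hox gene cluster of the right arm of chromosome 3 (3R) that holds the head and anterior thorax genes lab, pb, Dfd, Scr and Antp of Drosophila melanogaster. Its H3K18ac clusters were chosen by position: every enriched region of a deposited list that overlapped 3R from 2480000 to 2830000 on FlyBase release 5, a stretch of 350 kb. Replicate 1 had 8 such clusters of 4370 in its list, replicate 2 had 4 of 4910, and the combined list of the series had 20 of 7536. Acetylated lysine 18 of histone H3 (H3K18ac) was mapped by ChIP-seq in wild-type embryos of the strain Oregon-R aged 14 to 16 h. All samples were labelled with 1.8% formaldehyde, and their titles carry the words new lot after the name of the mark. The 4 samples were 2 ChIP libraries and 2 inputs, all from whole embryos, and each ChIP library was set against the input of the same number, per the labels. Read depth is unknown, since the lists hold only positions and a score, so no interval or floor that needs reads could be given.

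Hox genes encode homeodomain transcription factors that give the segments of the fly their identity along the head to tail axis, and their order on the chromosome follows the order of the body parts they specify. Late in embryogenesis each gene is active in its own set of segments and silenced elsewhere by Polycomb group proteins. H3K18ac, which the acetyltransferase CBP (Nejire in flies) places on histone H3, is known as a mark of active promoters and enhancers. A region missing from a list was not detected as enriched, and the mark may still be present there. In whole embryos, fewer cells with the mark and less of the mark per cell cannot be told apart.

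From low to high coordinate the complex was read in these segments. The first, from 2480000 to 2615999, holds lab and pb. The gene spans were approximate: Dfd from 2616000 to 2627000, Scr from 2648000 to 2676000 and Antp from 2722000 to 2826000. The stretches between Dfd and Scr, and between Scr and Antp, lay in between, and the last 4 kb lay past Antp. A RefSeq gene table of release 6 gave the same order of the 5 Hox genes, and it was used for gene order alone. In that order 8 protein-coding genes lie between lab and pb, 7 of them Ccp84A cuticle protein genes. The homeobox genes zen2 and zen, the maternal anterior determinant bcd and the microRNA gene mir-993 lie between pb and Dfd. The microRNA gene mir-10 lies between Dfd and Scr, and the pair-rule gene ftz between Scr and Antp.

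H3K18ac clusters covered little of the complex, and they stood in 3 places. These were a site on the low side of Dfd, a broad cluster between Dfd and Scr, and mostly short clusters within Antp. Those in Antp formed a scatter in replicate 1 (5 clusters) and the combined list (15), whereas replicate 2 had 1. The spans of Dfd and Scr and the stretch around ftz held none in any of the 3 lists. Replicate 1 covered 25035 bp of the complex (7.15%) and replicate 2 covered 15880 bp (4.54%), with a mean of 5.84% ± 1.85 (SD, n = 2). The rest of 3R was covered to 13.7% in both replicates, which is 1.91 times the share in the complex for replicate 1 and 3.01 times for replicate 2. In the combined list 53.7 kb of the complex was covered (15.3%), against 23.3% of the rest of 3R. All 3 lists thus gave the complex a lower share than the rest of its arm, and the distance to the rest of the arm was wider in replicate 2. Over 35 bins of 10 kb laid along the complex, 9 held part of a cluster in replicate 1, 5 in replicate 2 and 13 in the combined list. The map of the clusters shows these places and the gaps between them.

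**Figure D1:**
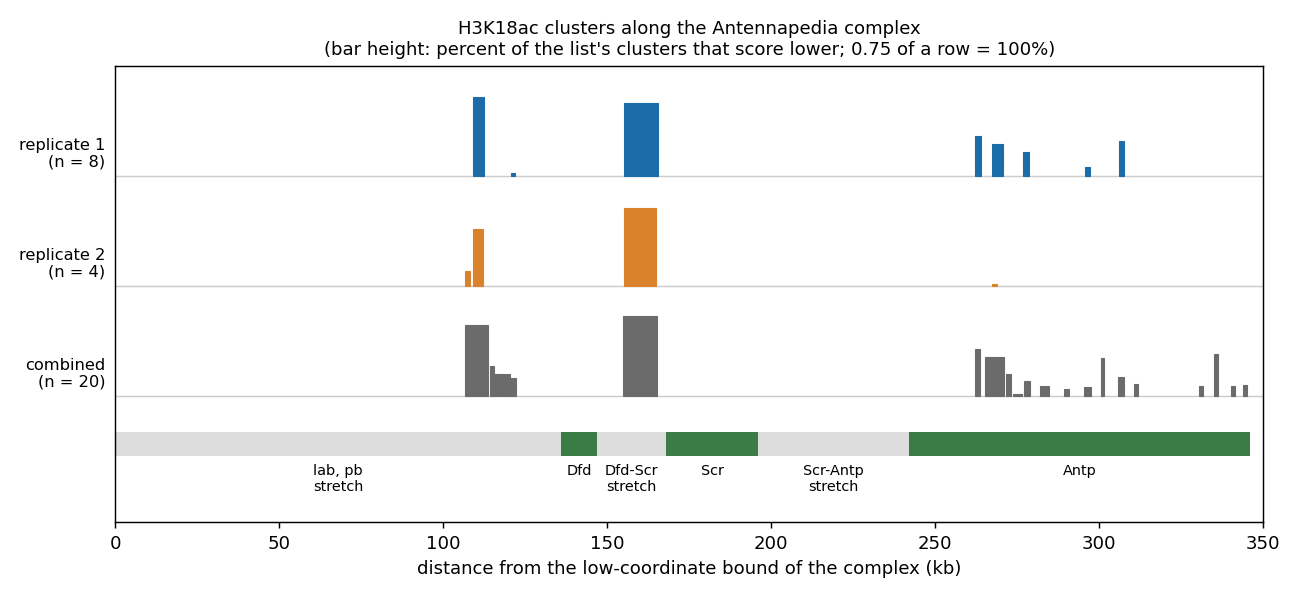
Clusters of each list along the complex, with distance from its low-coordinate bound in kb on the horizontal axis, 1 row per list, and the gene spans (green) and other stretches (grey) below. Bar width is cluster length and bar height is the percent of the list's clusters that score lower. The 3 lists hold 8, 4 and 20 clusters, and the broad cluster between Dfd and Scr appears in each.

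The complex was then set beside windows of its own length laid end to end along 3R. The covered share of the 78 other windows ranged from 0% to 51.5% in replicate 1, with a median of 11.4%, and from 0.578% to 49.6% in replicate 2, with a median of 12.2%. The complex lay below the median in both. It was covered more than 23 of the 78 windows in replicate 1 (29.5%) and more than 9 of them in replicate 2 (11.5%). The 9 windows below it in replicate 2 were also below it in replicate 1. In the combined list the complex was covered more than 25 of the 78 windows (32.1%), whose median was 22.3%.

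Counted by clusters rather than by bases covered, the complex changed side of the median in the combined list alone. The median of the other windows was 10.5 clusters in replicate 1, 12.5 in replicate 2 and 19 in the combined list. The complex was thus below the median with 8 clusters in replicate 1 and 4 in replicate 2, and above it with 20 in the combined list. Of the 78 other windows, 26 held fewer clusters in replicate 1, 3 in replicate 2 and 44 in the combined list. No test was run on these values: windows of one library are not replicates, and an exact permutation test of 2 against 2 libraries cannot give p below 0.333.

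**Figure D2:**
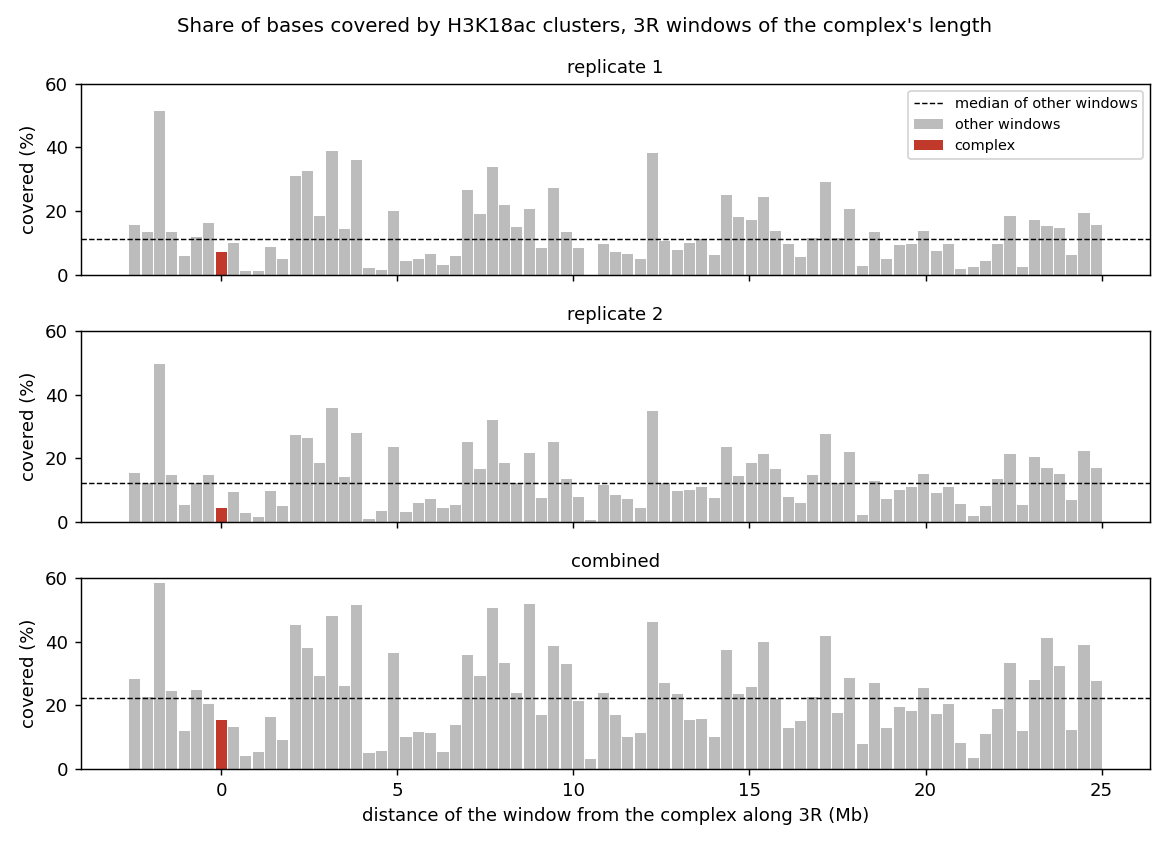
Percent of bases covered in each window of the length of the complex along 3R (vertical axis) against the distance of the window from the complex in Mb (horizontal axis), in 1 panel per list. The complex (red) lies below the median of the other windows (dashed line) in each panel, at 7.15%, 4.54% and 15.3%, and many windows lie lower in replicate 1.

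The stretch that holds lab and pb was empty over most of its length. The gene lab acts in the intercalary segment of the head and in the midgut, and pb in the mouthparts. Replicate 1 had 2 clusters in this stretch of 136 kb and replicate 2 had 2, covering 3.41% and 3.29% (mean 3.35% ± 0.0821, SD, n = 2). The combined list had 4, covering 10.7%. Among 203 other 3R windows of this length, 53 were covered no more than this in replicate 1 (26.1%) and 50 in replicate 2 (24.6%), so shares as low as this were found at many places of the arm.

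All of these clusters lay between 2586586 and 2602156, on the side of the stretch nearest to Dfd. By gene order that side holds zen, bcd and the cell adhesion gene Ama, but which gene each cluster overlaps was not determined, since no annotation of release 5 was used here. The strongest site of the complex by score in replicate 1 was here, at 3R:2589233-2592477 (3.25 kb). Its score was 0.880, rank 194 of 4370, above 95.6% of the list. In replicate 2 the same site ran from 2589185 to 2592133 with a score of 0.624, rank 1545 of 4910, above 68.5% of the list. The ends of the site differed between the replicates by 48 bp at the start and 344 bp at the end. Score goes with length in these lists, so each cluster was also ranked among the 3R clusters whose length was within 1.5 times its own. There the site scored above 97.1% of 275 clusters in replicate 1 and above 65.9% of 399 in replicate 2. The site was thus present in both lists with nearly the same edges, and its place in the score order was higher in replicate 1.

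Shorter clusters beside it were seen in 1 replicate each. Replicate 2 had one from 2586802 to 2588332 (score 0.479, above 17.5% of its list), which replicate 1 lacked. Replicate 1 had one from 2600585 to 2601977 (score 0.454, above 3.75% of its list), which replicate 2 lacked. The combined list joined the strong site and the first of these into a single cluster from 2586586 to 2593706 (7.12 kb, above 86.0% of its list), followed by 3 lower-scoring clusters up to 2602156.

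The span of Dfd, which patterns the maxillary and mandibular segments of the head, held no cluster in any list. The nearest cluster on its low side ended 14.0 kb away in replicate 1 and 23.9 kb away in replicate 2, and the nearest on its high side began 8.16 kb and 8.07 kb away. Of 2534 other 3R windows of the length of Dfd, 1530 (60.4%) had no cluster in either replicate, so an empty window of this size was the usual case.

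The broadest cluster of the complex lay between Dfd and Scr, the stretch that by gene order holds mir-10, a microRNA gene kept within Hox clusters from flies to mammals. That order places 9 genes in the stretch, among them 4 tRNA genes and 2 long non-coding RNA genes. Which of them the cluster overlaps, if any, was not determined. In replicate 1 the cluster ran from 2635159 to 2645535 (10.4 kb) with a score of 0.771, rank 545 of 4370, above 87.5% of the list. In replicate 2 it ran from 2635068 to 2644914 (9.85 kb) with a score of 0.795, rank 302 of 4910, above 93.8% of the list. In the combined list it ran from 2634980 to 2645306 (10.3 kb) and scored above 97.2% of the clusters. Its start differed by 91 bp between the replicates and its end by 621 bp. The replicates had 9.76 kb in common here, which was 94.0% of the cluster in replicate 1 and 99.1% in replicate 2. By share of overlap the replicates were closer here than at the other shared sites of the complex, although the ends of the site on the low side of Dfd differed by fewer bases.

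This cluster alone made up 41.5% of the covered bases of the complex in replicate 1, 62.01% in replicate 2 and 19.2% in the combined list. It covered 49.4% of the stretch between the genes in replicate 1 and 46.9% in replicate 2 (mean 48.2% ± 1.78, SD, n = 2). Of 1327 other 3R windows of this length, 1202 were covered no more than this in replicate 1 (90.6%) and 1196 in replicate 2 (90.1%). It was the only cluster of the complex of at least 10 kb in replicate 1, where 8.57% of the clusters of the rest of 3R reach that length. In replicate 2 it fell short of 10 kb, which 5.89% of the clusters of the rest of 3R reach. Among 3R clusters of like length its score was ordinary, above 53.7% of 95 clusters in replicate 1 and above 58.3% of 96 in replicate 2. The cluster ended 2.46 kb below the approximate low end of Scr in replicate 1, 3.09 kb below it in replicate 2 and 2.69 kb below it in the combined list.

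Scr, which specifies the labial segment and the first thoracic segment, held no cluster within its 28.0 kb, and neither did the 46.0 kb stretch between Scr and Antp, where ftz lies. The next cluster above Scr began 66.1 kb away in replicate 1, 71.3 kb away in replicate 2 and 66.0 kb away in the combined list. Windows of the length of Scr had no cluster in either replicate in 426 of 995 cases (42.8%), and those of the length of the stretch with ftz in 187 of 605 (30.9%). The absence of clusters at each one was therefore shared by many places of the arm. With the span of Scr widened by 5 kb on each side, the end of the broad cluster fell within it and 5.86% was covered, so the value of 0 depends on where the approximate span ends.

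Antp, which specifies the identity of the thorax, spans about 104 kb, and it was where the lists differed most. Replicate 1 had 5 clusters in it, which covered 10.0 kb (9.63%). Replicate 2 had 1 cluster, which covered 1.55 kb (1.49%). The mean share of 5.56% ± 5.76 (SD, n = 2) has a spread as wide as itself. The combined list had 15 clusters, which covered 28.8 kb (27.7%), more than the median of 18.02% over the other windows of this length. Of 267 such windows, 148 were covered no more than Antp in replicate 1 (55.4%) and 48 in replicate 2 (18%). Antp was thus near the middle of the arm in replicate 1 and in its lower part in replicate 2.

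Of the 5 clusters of replicate 1 in Antp, 4 were under 2 kb, and all 5 were of middle or low score in the full list. The first, from 2742078 to 2743845, scored 0.598 and stood above 47.6% of the list. The longest, from 2747445 to 2750657 (3.21 kb), scored 0.575 and stood above 38.3%. The next, from 2756849 to 2758640, scored 0.551 and stood above 28.9%. None of the 5 reached the upper 50% of its list. Those from 2775767 to 2777280 and from 2785979 to 2787711 scored 0.491 and 0.584, above 10.1% and 42.0% of the list. Among 3R clusters of like length the order was mixed. From low to high coordinate, the 5 stood above 76.2%, 18.4%, 52.7%, 25.7% and 70.7% of such clusters. Replicate 2 had a counterpart for the longest alone, from 2747337 to 2748889, with a score of 0.375, rank 4794 of 4910. This counterpart stood above 5.62% of 587 3R clusters of like length. That cluster began 108 bp before the one of replicate 1 and ended 1768 bp before it, so that it covered 45.0% of it.

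Within Antp the clusters were not spread evenly. The span was divided into 4 equal blocks of 26 kb from low to high coordinate. Replicate 1 covered 8.93%, 17.1%, 12.5% and 0% of them in turn. Replicate 2 covered 2.55%, 3.42%, 0% and 0%, from its single cluster. The combined list covered 17.8%, 50.7%, 22.5% and 19.7%. The second block held the most in each list. In replicate 2 this rests on where the boundary fell in its single cluster, with 0.663 kb in the first block and 0.89 kb in the second. The last block held clusters in the combined list alone. The first 20 kb or so of the span, from 2722000 to 2741997, was empty in all 3 lists.

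**Figure D3:**
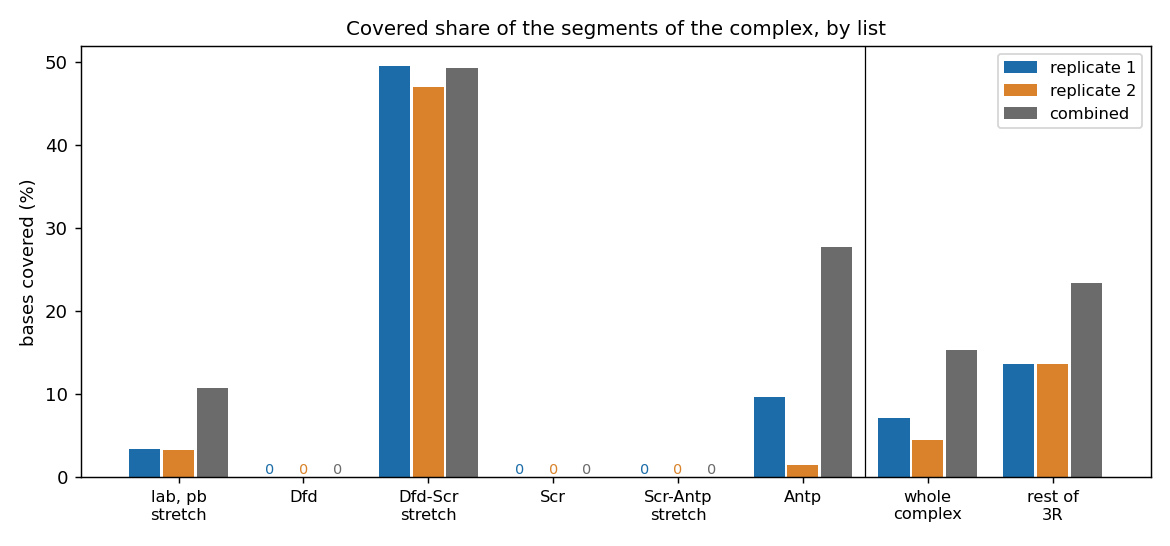
Percent of bases covered by clusters (vertical axis) in each segment of the complex, in the whole complex and in the rest of 3R, with 1 bar per list and a 0 where a list has no cluster. The lists lie close together between Dfd and Scr (46.9% to 49.4%) and far apart at Antp (1.49% to 27.7%).

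Sharing between the replicates followed these places. Of the 8 clusters of replicate 1 in the complex, 3 overlapped a cluster of replicate 2 by at least 1 bp (37.5%, 95% exact Clopper-Pearson interval 8.52 to 75.5), against 74.7% in the rest of 3R. Of the 4 clusters of replicate 2, 3 overlapped one of replicate 1 (75%, 19.4 to 99.4), against 72.1% in the rest of 3R. These intervals take each cluster as independent and express counting error alone. The 3 shared sites were the one on the low side of Dfd, the broad cluster between Dfd and Scr, and the longest cluster of Antp in replicate 1. Of the 5 clusters of replicate 1 without a counterpart, 4 were in Antp, and all 5 were under 2 kb. Clusters under 2 kb elsewhere on 3R were shared in 55.4% of cases in replicate 1. In bases, the replicates had 14.1 kb in common out of 26.8 kb covered by either, a Jaccard index of 52.6%, against 61.0% for the rest of 3R. The index was 93.2% between Dfd and Scr, 46.7% in the stretch with lab and pb, and 14.3% in Antp.

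The combined list added clusters mainly in Antp, and these scored low. It was made from the same libraries, so its overlap with the replicates is not independent evidence. Of its 20 clusters in the complex, 3 overlapped a cluster in both replicates (15.0%), against 30.6% in the rest of 3R. A further 5 overlapped replicate 1 alone (25%, against 10.1%), none overlapped replicate 2 alone, and 12 overlapped neither (60%, against 44.9%). Of those 12, 10 lay in Antp, which held 15 of the 20 clusters. The scores of those 10 stood above 2.06% to 50.0% of the combined list, with a median of 12.4%. Clusters of the rest of 3R that overlapped neither replicate had a median of 31.4%. In all, 11 of the 20 clusters were among the lowest-scoring 25% of the combined list, against 28.2% of the clusters of the rest of 3R. In Antp 10 of 15 were.

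Scores in the complex as a whole ran from low to high. The median cluster of the complex scored above 40.1% of the list in replicate 1 and above 43.0% in replicate 2 (mean 41.6% ± 2.03, SD, n = 2), against 46.4% and 47.0% in the rest of 3R. In replicate 1, 2 of the 8 clusters were among the highest-scoring 25% of the list, against 22.1% in the rest of 3R. In replicate 2, 1 of the 4 was, against 24%. Both of those in replicate 1 and the 1 in replicate 2 lay outside Antp, at the site on the low side of Dfd and between Dfd and Scr. Weighted by length, the median was above 90.7% of the list, as the mean of the replicates. In each replicate this median fell on the broad cluster between Dfd and Scr, so it gives the score of that cluster again. No length-weighted value was computed for the rest of 3R.

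**Figure D4:**
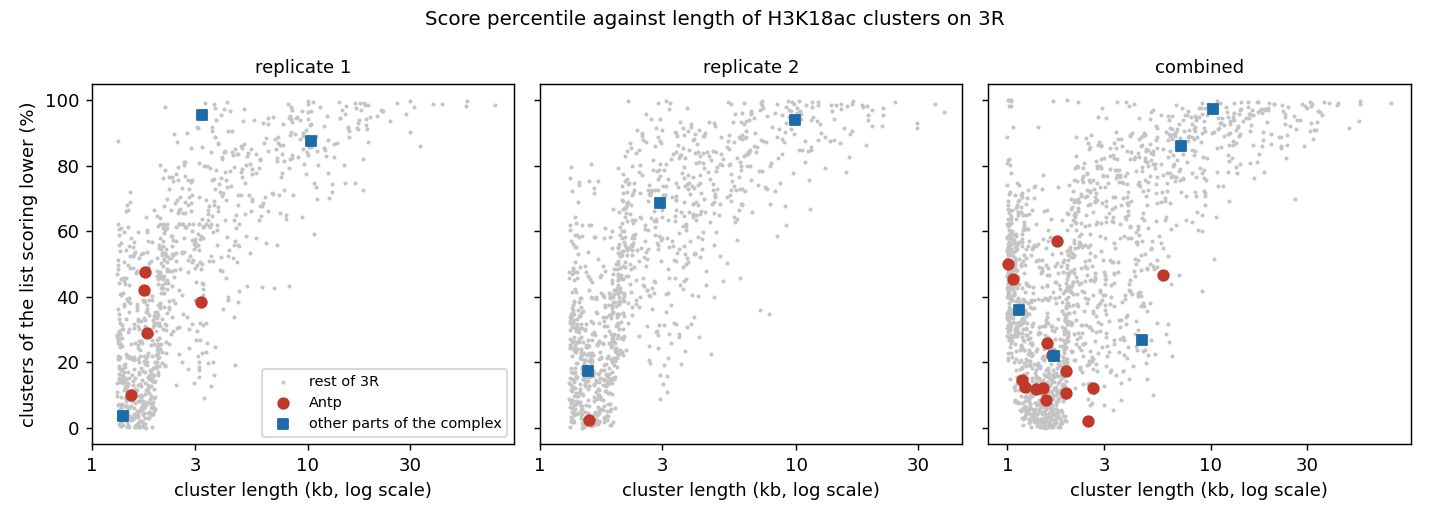
Percent of the clusters of the list that score lower (vertical axis) against cluster length in kb on a log scale (horizontal axis), for all clusters on 3R in each list. The clusters of Antp (red circles) are at most 5.83 kb long and stand above at most 57.0% of their list, and the broad cluster between Dfd and Scr (blue square near 10 kb) stands above 87.5% to 97.2%.

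The longest stretches without a cluster ran beyond the genes and, at either end, beyond the complex. On the low side no cluster of either replicate lay between 2293621 and 2586801, a stretch of 293 kb of which 107 kb belonged to the complex. It was the third longest of the 1097 stretches between clusters of either replicate on 3R, whose median was 5052 bp. On the high side the stretch from 2787712 to 2900221 (113 kb) began within Antp and had rank 48. Between them, the stretch from 2645536 to 2742077 (96.5 kb) held Scr, ftz and the low end of Antp and had rank 61. In the combined list the same 3 gaps measured 280 kb, 66.8 kb and 96.7 kb. The gap that holds Scr and ftz was thus of nearly the same length in the combined list, whereas that past Antp was shorter there.

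The bounds of the complex did not cut any cluster. The nearest cluster below them ended 186 kb away in replicate 1 and 216 kb away in replicate 2, and the first inside began 109 kb and 107 kb above the low bound. The nearest cluster above them began 70.2 kb away in replicate 1 and 70.4 kb away in replicate 2, and the last inside ended 42.3 kb and 81.1 kb below the high bound. Widening the bounds by 25 kb on each side therefore added no cluster and lowered the mean covered share to 5.11%.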

How the data were processed

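H3K18ac ChIP-seq of whole embryos gave 1 list of enriched regions per ChIP replicate and a combined list for the series. Bowtie 0.12.7 was among the tools, per the submitters' processing notes; the region caller, its settings and how replicates were combined are not given in the sources. Coordinates are on FlyBase r5, per the file headers, counted from 1. The score of each region is the authors' deposited value, with no stated scale, so it was used only to rank clusters within a list. The lists hold no reads, so depth is unknown. Nothing in the labels says that the replicates were separate collections of embryos, so their spread may be technical.

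Covered bases, gaps, overlaps (at least 1 bp) and score ranks were computed in Python 3.11.15 with numpy 2.4.6, pandas 2.3.3 and scipy 1.17.1, drawn with matplotlib 3.10.9, and tested on simulated clusters of known position. Windows of the length of the complex or of a segment were laid end to end along 3R, and those not whole were left out. The members, segments, gene spans and values described were chosen with earlier results of these data known. The blocks of Antp, the 10-kb bins and the ranks among clusters of like length were added after the lists had been examined. By rule, the named clusters were the longest and highest-scoring of each segment, those of 10 kb or more and those without a counterpart in the other replicate, with the 3 longest stretches without a cluster. Inputs have no list of their own and were not analysed here, and the sequences of the clusters were not used here.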

Additional observations from a re-analysis of the deposited data

How the results depend on the processing

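Of 38 alternative values that kept both replicates, 26 stayed within the spread of the replicates, the exact interval or, for the number of clusters, 1.5 times, and 12 moved. Some of the 26 could not have moved. Dfd, Scr and the stretch between Scr and Antp were empty in both replicates. Leaving clusters out, or merging those within 1 kb, could only keep their shares at 0. The count of 26 therefore overstates how stable the results were. For the Jaccard index the exact interval took each kb as an independent trial, so it does not measure the spread of the replicates. With the lower-scoring 50% of each list left out, the covered share of the complex was 3.77% in place of 5.84%. The mean number of clusters was 2 in place of 6, and the share of clusters overlapping the other replicate 100% in place of 50.0%. That share came from the 2 clusters kept in each replicate, at the same 2 sites. The like share for the rest of 3R was not computed. Under that choice the Jaccard index was 92.0% in place of 52.6%, and the median score percentile 86.4% in place of 41.6%. The percentile was still taken in the full list, so it cannot be below 50% by construction. The longest stretch without a cluster was then 184 kb in place of 107 kb. The covered share of the stretch with lab and pb was 2.28% in place of 3.35%. No cluster of Antp is kept by that choice, so its share was 0% in place of 5.56%. Even so, this value counts among the 26 that stayed. The lower limit of the spread of the replicates at Antp is below 0, so no loss of coverage could count as a move. The median percentile was 44.2% among clusters on 3R and 90.7% weighted by length. The latter is the mean score percentile of the broad cluster between Dfd and Scr. Merging within 1 kb raised the share of the stretch with lab and pb to 3.67%, the combined list raised the share of the complex to 15.3%, and Scr widened by 5 kb was covered to 5.86% in place of 0%. The share of other 3R windows covered at least as much as the complex, 79.5% as the mean of the replicates, ranged from 67.9% to 84.6% over these alternatives. With 1 replicate left out, the share of the complex was 4.54% to 7.15%, that of Antp 1.49% to 9.63%, the number of clusters 4 to 8, and the longest stretch 107 kb to 109 kb; with 2 replicates such values lie within 1 SD of the mean by construction, except for the stretch, which is read from both lists. Antp without replicate 1 was covered to 1.49% in place of 5.56%. No paired analysis was possible because only the ChIP samples have lists.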

Other observations

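The windows of 350 kb on either side of the complex were covered more than the complex itself in both replicates. In the combined list the window on the low side was covered to 20.4% and that on the high side to 13.3%, against 15.3% for the complex. On the low side, replicates 1 and 2 covered 16.3% and 14.8% of the window, with 8 and 7 clusters, and on the high side 9.90% and 9.47%, with 7 and 8 clusters. Both held a cluster longer than any in the complex, of 19.2 kb and 19.1 kb on the low side and of 17.1 kb and 11.4 kb on the high side. In replicate 1 the complex thus held as many clusters as the window below it, and the longest of them was shorter.

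In the combined list neighbouring clusters of Antp lay 3161 bp apart at the median over 14 distances, near the median of 3195 bp for 3R. Clusters of replicate 1 in Antp lay 7444.5 bp apart at the median over 4 distances, against 5218 bp on 3R.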
